A study of Mus musculus with 28 samples.

Results

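The genes described here were 10 stem cell marker genes of the mouse, *Dppa2*, *Dppa4*, *Dppa3*, *Dppa5a*, *Utf1*, *Sall4*, *Lin28a*, *L1td1*, *Tdh*, and *Fbxo15*. They were chosen by symbol, with no measured value in the rule, and joined by Entrez gene identifier across the files. RNA-seq values were present in every library for 15384 genes, and these included all 10. Apart from the neural progenitors named below, the samples were cells of the E14 line, mouse embryonic stem cells (mESCs). They were grown on gelatin with serum and LIF (10 ng/ml), the cytokine that keeps mESCs from differentiating. Control cells received control shRNA vectors, and *Ssrp1* knock-down (KD) cells received a combination of 2 shRNAs against *Ssrp1*, whose product forms the histone chaperone FACT together with SUPT16. In both groups puromycin (2 μg/ml) was applied 48 h after transfection for another 24 h, so the RNA is of a pool of transfected, selected cells. There were 4 control and 4 KD RNA-seq libraries with spike-in RNA. Early neural progenitors entered only through the authors' mean expression. They came from embryoid bodies treated with retinoic acid and then grown in serum without LIF. From cells for which no transfection is stated there were 2 libraries of chromatin-associated RNA and 1 peak list for each FACT subunit. Each list was made from 2 ChIP-seq replicates.

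The Dppa genes, for developmental pluripotency associated, were named for expression in pluripotent cells and are not one family by sequence. DPPA2 and DPPA4 are related proteins with a SAP domain that bind DNA as a pair and prime promoters of developmental and early cleavage-stage genes. The other markers are a maternal factor that guards DNA methylation (*Dppa3*), RNA-binding proteins (*Dppa5a*, *Lin28a*, *L1td1*), chromatin and transcription factors (*Utf1*, *Sall4*), a metabolic enzyme (*Tdh*), and an F-box protein (*Fbxo15*). Most of them fall silent when mESCs differentiate.

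The promoters of *Utf1*, *L1td1*, and *Lin28a* were in the RefSeq table of promoters (build GRCm38.p6, the assembly that mm10 names), so 3 of the 10 genes matched. They are shown because the SSRP1 peaks described further on cover the whole window of *L1td1* and *Lin28a* and no base of that of *Utf1*. Each is the 250 bases before the annotated start, 5′ to 3′ on the strand of the gene, in lower case, with the motif GGGCGG (the GC box) in capitals. The windows are chr7:139943606-139943855 on the plus strand for *Utf1*, chr4:98726504-98726753 on the plus strand for *L1td1*, and chr4:134018817-134019066 on the minus strand for *Lin28a*.
Utf1: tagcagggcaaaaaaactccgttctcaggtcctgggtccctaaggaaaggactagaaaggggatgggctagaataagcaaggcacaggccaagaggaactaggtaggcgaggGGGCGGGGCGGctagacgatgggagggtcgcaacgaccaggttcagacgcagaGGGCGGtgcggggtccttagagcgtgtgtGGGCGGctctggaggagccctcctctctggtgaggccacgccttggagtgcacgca
L1td1: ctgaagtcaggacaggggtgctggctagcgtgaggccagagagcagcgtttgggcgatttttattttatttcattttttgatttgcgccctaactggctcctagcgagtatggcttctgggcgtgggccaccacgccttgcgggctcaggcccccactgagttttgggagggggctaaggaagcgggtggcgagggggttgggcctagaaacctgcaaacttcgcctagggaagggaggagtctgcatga
Lin28a: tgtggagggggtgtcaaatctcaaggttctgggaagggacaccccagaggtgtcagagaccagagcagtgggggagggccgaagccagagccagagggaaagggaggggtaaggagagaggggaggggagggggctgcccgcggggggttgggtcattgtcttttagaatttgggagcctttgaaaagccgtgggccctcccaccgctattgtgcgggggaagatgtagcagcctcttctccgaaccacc
The *Utf1* window held 4 copies of GGGCGG, whose first bases lie 138, 133, 85, and 56 bases before the start, all on the strand of the gene, and the first pair overlap by 1 base. On either strand, GGGCGG occurred in 32.7% of the 32851 promoter windows of this length. TATAAA (12.4% of windows), CCAAT (33.8%), the octamer ATGCAAAT (1.6%), and ACAAAG (16.5%) were searched on both strands in the same way, and none of these 4 motifs occurred in the 3 windows. GC content was 61.6% for *Utf1*, 57.6% for *L1td1*, and 61.2% for *Lin28a*, against a median of 52.4% over all windows.

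Reads per library, recovered from the step between values, ranged from 4602278 to 6680919 in control and from 9433193 to 19856032 in KD, so low values were less precise in control. An RNA-seq value is the deposited value scaled to library size, close to CPM with a correction for composition. The targeted gene *Ssrp1* had values of 261, 229.8, 223, and 226 in control and 24.1, 26.4, 24.9, and 28.9 in KD, so the ratio of the KD mean to the control mean was 0.111. Its log2 fold change was -3.15. The mRNA of *Supt16* lay at 319 ± 22.02 in control and 504 ± 20.2 in KD (SD, n = 4 each), with a log2 fold change of 0.66 that was 0.03 under quantile normalisation. The study reports depletion of SUPT16 protein in KD by mass spectrometry, which was not examined here. The defining markers of mESCs were all present, with control means of 286 for *Pou5f1*, 151 for *Sox2*, 131 for *Nanog*, and 239.5 for *Zfp42*. Markers of other cells differed by list. Of those with values, 4 of 7 primitive endoderm (*Gata6*, *Gata4*, *Sox17*, and *Sox7*), 1 of 7 trophectoderm (*Cdx2*), 2 of 5 neural (*Pax6* and *Map2*), and 4 of 5 fibroblast markers (*Col1a1*, *Col1a2*, *Col3a1*, and *Postn*) were called lower, by the rule given in the next paragraph, and 1 of 4 primed epiblast (*Otx2*) and 1 of 5 neural markers (*Tubb3*) were called higher. The neural list holds markers of progenitors and of neurons. Under the spike-in scaling 1, 0, 0, and 3 markers of the first 4 lists were called lower, and 3 of 4 primed epiblast markers were called higher. The summed value of the fibroblast markers was 50.0 to 63.7 in control and 13.2 to 15.0 in KD, that of the primitive endoderm markers 196 to 207 and 129.8 to 148, that of the trophectoderm markers 1026 to 1379 and 799 to 846.5, that of the neural markers 83.7 to 107 and 144.5 to 155.5, and that of the primed epiblast markers 179 to 206 and 265 to 286. Such sums weigh the most abundant genes most. The neural sum rose with *Tubb3* (33.6 ± 5.27 in control, 108 ± 4.56 in KD, SD, n = 4 each). *Pax6*, *Nes*, *Sox1*, and *Map2* had lower means in KD, and the median log2 fold change of the neural markers was -0.96. No marker with a value was at 0 in its group mean, and the part of other cells in the results was not tested.

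In KD, 4 of the 10 genes rose past both thresholds of the test, *Dppa3*, *Dppa5a*, *L1td1*, and *Dppa4*, and none fell. A gene was called at an adjusted p below 0.01 and an absolute log2 fold change above 1 (limma on log2(value + 0.5), with Benjamini-Hochberg adjustment over 15384 genes). By that rule 8.07% of all genes tested were called higher and 20.6% lower. By the adjusted p alone 9 of the 10 genes were higher, against 35.4% of all genes higher and 37.3% lower. For the same 9 genes every KD library lay above every control library, which held for 35.8% of all genes. The exception was *Sall4*. The median log2 fold change of the 10 genes was 0.86, beside -0.03 for all genes tested. As 8 of the 10 were among the 3846 genes with the highest mean values, these are given too. Their median was 0.47, 16.1% of them were called higher, and 70.1% were higher by the adjusted p alone. RNA was measured in bulk, so more cells with a transcript and more of it per cell cannot be told apart.

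**Figure D1:**
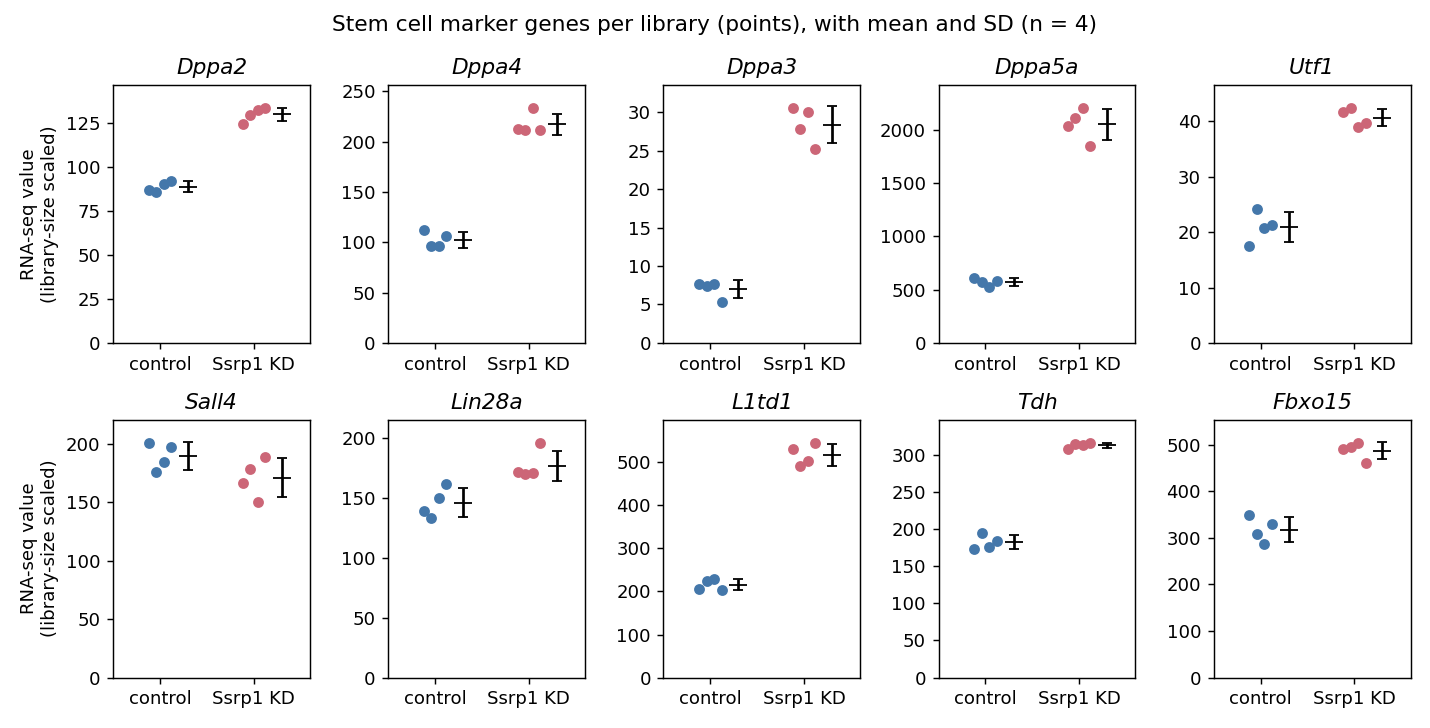
RNA-seq value (library-size scaled, linear axes from 0) of each stem cell marker gene in 4 control and 4 *Ssrp1* KD libraries, 1 point per library, with the mean and SD of each group in black. The groups overlap for *Sall4* alone, and *Dppa5a* and *Dppa3* show the widest separation relative to their control level.

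*Dppa3* (also known as Stella) encodes a maternal factor that shields the methylation of imprinted genes in the zygote. It had values of 7.62, 7.40, 7.71, and 5.33 in control and 30.5, 27.8, 30.1, and 25.2 in KD. The KD mean was 4.05 times the control mean, and the lowest KD library lay far above the highest control library. In limma its log2 fold change of 1.95 had a standard error of 0.13 (adjusted p = 9.8e-14). These values rest on 39 to 56 reads per library in control and 247 to 474 in KD, the fewest among the 10 genes.
*Dppa5a* (also known as Esg1) encodes an RNA-binding protein with a KH-type domain. Its values were 607, 569.8, 525, and 579.6 in control and 2035, 2107, 2198, and 1848 in KD. No library of one group came near the other, and the ratio of the means was 3.59. This was a log2 fold change of 1.84 with a standard error of 0.07 (adjusted p = 8.61e-19 in limma). In the order of all log2 fold changes *Dppa3* stood at percentile 99.6 and *Dppa5a* at 99.4.
Both genes have copies in RefSeq without a value in these tables, to which reads could also align. The exons of *Dppa5a* were identical in 92.4% of 641 bases to *Dppa5b* and in the same share to *Dppa5c*, both on chromosome 9. Those of *Dppa3* were identical in 97.8% of 818 bases to *Dppa3-ps* on chromosome X. No source used here states how reads that fit both places were counted, so the values of this pair of genes are uncertain to that extent.

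*Dppa2* and *Dppa4* are neighbours on chromosome 16, read in the same direction with 15981 bp between them. *Dppa4* had values of 112, 96.0, 96.3, and 106 in control and 212, 212, 233, and 212 in KD. Replicate 3 was the highest of the KD libraries, and all of them lay above the highest control library. It rose by 1.08 on the log2 scale, with a standard error of 0.06 (adjusted p = 6.11e-15 in limma), just past the fold threshold. *Dppa2* had values of 86.9, 85.5, 90.6, and 92.2 in control and 124.7, 129.5, 132, and 133 in KD. It was higher in every KD library too, at a log2 fold change of 0.55 (standard error 0.06, adjusted p = 1.54e-09 in limma), short of the fold threshold. The ratio of *Dppa2* to *Dppa4* within a library was lower in KD, with log2 ratios of -0.37 to -0.09 in control and -0.82 to -0.67 in KD. The difference was -0.53 (two-sided exact permutation test over the 8 libraries, p = 0.0286, which is the lowest possible with 4 libraries a group; adjusted p = 0.0381 over 4 pairs). Of the 16 measured early cleavage-stage genes that DPPA2 and DPPA4 are known to act on, 6 were called lower and none higher, beside 20.6% of all genes called lower. Their median log2 fold change was -0.91, beside -0.03 for all genes. Under the spike-in scaling 1 was called higher and 1 lower, with a median of 0.11 where that of all genes was 0.95. Scaled to total reads 13 were called lower, but the median of all genes was -0.45 there. That setting called 4696 of all genes lower, against 3163 in the library-size scaling. Minus the median of all genes, the median of the list was -0.89 with total reads and -0.87 in the library-size scaling. With the exon length correction 9 were called lower, as were 3280 of all genes, and that difference was -1.01. The largest fall among the 16 genes was that of *Duxf3*, a gene of the Dux repeat, from 111 ± 28.5 to 6.38 ± 0.813 (SD, n = 4 each). Many of these genes are near-identical copies, so their single values are uncertain.

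*Utf1* encodes a chromatin-associated factor found at bivalent genes. Its values were 17.6, 24.1, 20.8, and 21.3 in control and 41.7, 42.3, 38.9, and 39.8 in KD. The groups were far apart, and the log2 fold change of 0.95 (standard error 0.09, adjusted p = 3.55e-10 in limma) was just under the fold threshold. It passed that threshold, at 1.02, when control replicate 2 was left out.
*Sall4* encodes a zinc finger transcription factor that supports *Pou5f1* expression. It had values of 200.5, 176, 184, and 197.5 in control and 167, 178, 151, and 189 in KD. The groups overlapped, and the log2 fold change of -0.15 (standard error 0.06, adjusted p = 0.0365 in limma) did not pass the test. Its sign turned under the spike-in scaling (0.87, below the median of all genes there) and with a correction for exon length (0.09). It was lower by the adjusted p, short of the fold threshold, under quantile normalisation (-0.64, adjusted p = 1.62e-08 in limma). The same held when scaled to total reads (-0.58, adjusted p = 6.38e-09 in limma), where the median of all genes was -0.45. Of its paralogues, *Sall3* fell from 10.5 ± 2.14 to 2.38 ± 0.575 (SD, n = 4 each), *Sall2* was also called lower, with a log2 fold change of -1.35 that did not pass under the spike-in scaling (-0.38, adjusted p = 0.236 in limma) and was short of the fold threshold under quantile normalisation (-0.83), and *Sall1* had 0.55, short of the fold threshold.

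*Lin28a* encodes the RNA-binding protein that blocks the maturation of the let-7 family of microRNAs. Its values were 139.7, 133.7, 150.3, and 162 in control and 172, 170.2, 171, and 196 in KD. The lowest KD library lay only just above the highest control library. A log2 fold change of 0.28 (standard error 0.06) had an adjusted p of 3.17e-04 in limma, and it was negative under quantile normalisation (-0.18) and when scaled to total reads (-0.15). Its paralogue *Lin28b* fell, from 25.4, 27.9, 23.7, and 27.8 in control to 10.1, 11.6, 11.5, and 11.1 in KD (log2 fold change -1.20). That fall did not pass the test under the spike-in scaling (-0.21, adjusted p = 0.521 in limma), and it was short of the fold threshold with the exon length correction (-0.93). The ratio of *Lin28a* to *Lin28b* in KD was 2.79 times that in control, with log2 ratios of 2.24 to 2.64 in control and 3.82 to 4.08 in KD (exact permutation test, two-sided, p = 0.0286, adjusted p = 0.0381). Of 11 measured genes of the Lin28 and let-7 pathway, 2 were called higher, *Hmga1* at 1.03 and *Igf2bp3* at 1.01, and 1 lower, *Lin28b*. Of all genes 8.07% were called higher and 20.6% lower. The median log2 fold change of the 11 pathway genes, -0.20, was 0.83 under the spike-in scaling, 0.06 with the exon length correction, -0.42 under quantile normalisation, and -0.63 when scaled to total reads. In the last pair of settings none was called higher, and 2 and 3 were called lower.
*L1td1* encodes an RNA-binding protein that derives from the first open reading frame of a LINE-1 element. Its values were 206, 225, 229, and 203 in control and 530.4, 490, 503, and 544 in KD. All KD libraries lay far above all control libraries. It rose by 1.26 on the log2 scale, with a standard error of 0.06 (adjusted p = 7.96e-17 in limma).

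*Tdh* encodes threonine dehydrogenase, the first enzyme in the breakdown of threonine, on which mESCs depend for glycine and acetyl groups. Its values were 174, 194.5, 176, and 183.5 in control and 308, 314, 313, and 315.5 in KD. The KD libraries were close to each other and well above the control libraries. A log2 fold change of 0.78, with a standard error of 0.05 and an adjusted p of 3.97e-13 in limma, was short of the fold threshold. *Gcat*, the enzyme that acts next, rose more, from 19.5, 27.7, 30.1, and 25.3 to 94.3, 95.2, 94.7, and 91.6 (log2 fold change 1.87). The log2 ratio of *Tdh* to *Gcat* was 2.82 ± 0.24 in control and 1.73 ± 0.03 in KD (SD, n = 4 each; exact permutation test, two-sided, p = 0.0286, adjusted p = 0.0381). Of the 10 other genes of threonine and glycine catabolism, 5 were called higher and none lower, with a median of 1.03, beside 8.07% called higher and a median of -0.03 for all genes. Beside *Gcat* these were *Mthfd1l* (1.59), *Shmt2* (1.59), *Shmt1* (1.13), and *Mthfd2* (1.12), enzymes of serine, glycine, and folate one-carbon metabolism. Under quantile normalisation 3 of the 10 were called higher (9.87% of all genes), and 3 when scaled to total reads (2.23%). Under the spike-in scaling all 10 were called higher, as were 48.1% of all genes. The median of this list was 0.62 under quantile normalisation and 0.60 when scaled to total reads. Minus the median of all genes, it was 0.57 and 1.05, against 1.06 in the library-size scaling.
*Fbxo15* encodes an F-box protein, the part of an SCF ubiquitin ligase that binds the substrate, and was long used as a reporter of the pluripotent state. Its values were 348.5, 307, 286.5, and 329 in control and 489.9, 494, 503, and 460.2 in KD. The groups did not overlap, and a log2 fold change of 0.62, with a standard error of 0.06 and an adjusted p of 4.5e-10 in limma, was short of the fold threshold and near 0 under quantile normalisation (-0.02). Of 5 measured genes of SCF ligases, which include other F-box proteins, none was called in either direction. Their median was 0.53, and -0.08 under quantile normalisation. Under the spike-in scaling 4 were called higher, as were 48.1% of all genes. Scaled to total reads 1 was called lower, as were 4696 of all 15384 genes.

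Levels of different genes were compared per kb of annotated exon, a scale on which long and short transcripts can be set side by side. In control the order from the highest was *Dppa5a* (889.9 ± 53.5), *Fbxo15* (200.4 ± 16.9), *Tdh* (96.8 ± 4.96), *L1td1* (73.3 ± 4.51), *Dppa4* (67.0 ± 5.20), *Dppa2* (45.7 ± 1.605), *Lin28a* (42.1 ± 3.58), *Sall4* (37.4 ± 2.28), *Utf1* (18.1 ± 2.31), and *Dppa3* (8.58 ± 1.38), as value per kb with the SD over 4 libraries. The library ranges of *L1td1* and *Dppa4*, of *Dppa2* and *Lin28a*, and of *Lin28a* and *Sall4* overlapped, so these neighbours did not differ beyond their spread. *Dppa5a* was more abundant per kb than 99.6% of genes, while *Dppa3*, the lowest, stood at percentile 51.9. In KD *Dppa5a* led again with 3194 ± 232 per kb, ahead of *Fbxo15* with 307 ± 11.7. *Sall4* was now the lowest with 33.7 ± 3.24, next to *Dppa3* (34.7 ± 2.99) and *Utf1* (35.1 ± 1.37), and the ranges of these neighbours overlapped. *Dppa3* moved to percentile 81.9, and *Sall4* moved from percentile 88.4 to 81.4. The spread between replicates was narrow, with a coefficient of variation between 3.51% (*Dppa2*) and 16.1% (*Dppa3*) in control and between 1.09% (*Tdh*) and 9.62% (*Sall4*) in KD.

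**Figure D2:**
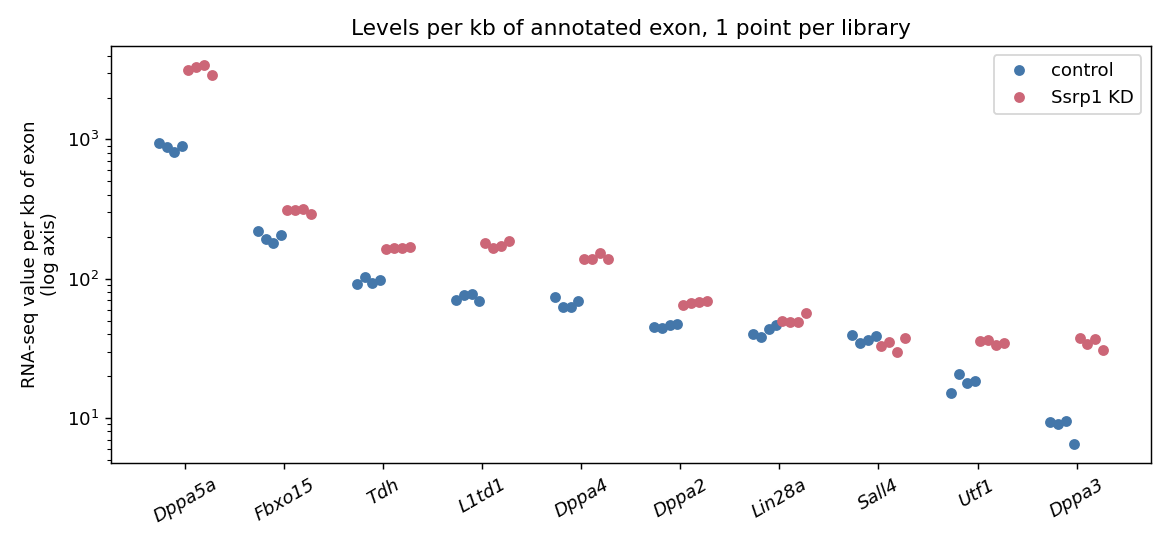
RNA-seq value per kb of annotated exon (log axis) of the stem cell marker genes in 4 control and 4 *Ssrp1* KD libraries, 1 point per library, in the order of the control mean. *Dppa5a* leads in both groups, and *Dppa3*, lowest in control at 8.58, is level with *Utf1* and *Sall4* in KD.

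Each gene was also set against *Pou5f1* (Oct4), the core pluripotency factor, within the same library, since such a ratio is the same for any scaling by 1 factor per library, apart from the pseudocount. Quantile normalisation and the exon length correction are no such scalings. *Pou5f1* itself rose from 272, 312, 283, and 278 in control to 685.5, 668, 677, and 662 in KD, a log2 fold change of 1.23. Relative to *Pou5f1*, *Dppa3* and *Dppa5a* were higher in KD, 6 genes were lower, and *Dppa4* and *L1td1* were not separated. Because *Pou5f1* rose, most genes were lower relative to it. Of all 15384 genes, 90.1% had every KD library below every control library in this ratio, 1.56% had every KD library above, and the median difference was -1.27. Among the 3846 genes with the highest mean values these were 83.5%, 3.61%, and -0.77. The 6 lower genes thus did what most genes did. Only the difference of *Sall4* was below the median of all genes, and those of *Sall4* and *Lin28a* were below the median of the 3846 genes. For *Dppa3* the log2 ratio was between -5.58 and -5.07 in control and between -4.69 and -4.47 in KD, a difference of 0.72. *Dppa5a* had log2 ratios of 0.87 to 1.16 in control and 1.48 to 1.70 in KD, a difference of 0.61. For the genes that were lower, the differences of mean log2 ratios were -1.38 for *Sall4*, -0.96 for *Lin28a*, -0.69 for *Dppa2*, -0.62 for *Fbxo15*, -0.45 for *Tdh*, and -0.29 for *Utf1*. The ratio of *Sall4* to *Pou5f1* in KD was thus 0.383 times that in control, and it was lower in 4 of 4 KD libraries. For each of these 8 genes the groups did not overlap (two-sided exact permutation test over 8 libraries, p = 0.0286, again the lowest possible; adjusted p = 0.0357 over 10 genes). The difference was -0.15 for *Dppa4* (exact permutation test, p = 0.257, adjusted p = 0.286) and 0.02 for *L1td1* (exact permutation test, p = 0.657), and their groups overlapped. With *Sox2* as the reference the same 8 genes were separated in the same direction. With quantile-normalised values, the log2 fold change minus that of *Pou5f1* was 1.88 for *Dppa3* and 0.35 for *Dppa5a*, and it was above 0 for *Utf1* (0.33) and *Dppa4* (0.08). With the exon length correction *Pou5f1* rose by 0.98, beside 1.44 for *Dppa3*, 1.29 for *L1td1*, and 1.21 for *Dppa5a*. In that setting *Sall4* (0.09) was above the median of all genes (-0.04). With *Nanog*, *Utf1* was no longer separated (difference -0.10, exact permutation test, p = 0.314), and *L1td1* was higher (0.21). *Dppa5a* and *Dppa3* did not part from each other, with log2 ratios of 6.00 to 6.64 in control and 6.04 to 6.22 in KD (difference -0.11, exact permutation test, p = 0.543).

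**Figure D3:**
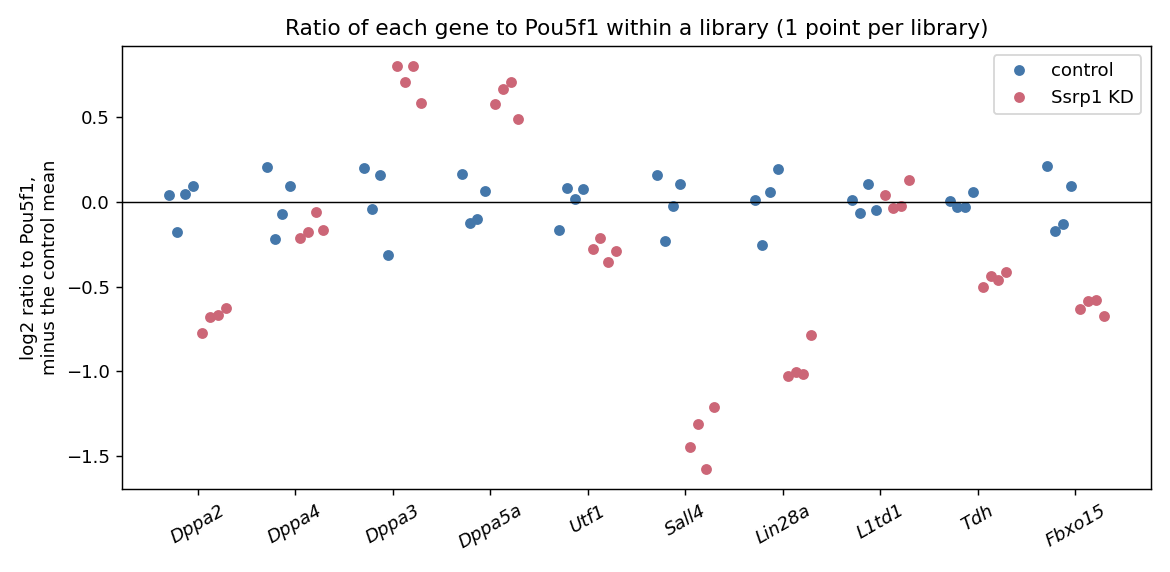
log2 ratio of each stem cell marker gene to *Pou5f1* within a library, minus its control mean, 1 point per library for 4 control and 4 *Ssrp1* KD libraries. *Dppa3* and *Dppa5a* lie above 0 in every KD library, *Sall4* lies lowest, and the groups overlap for *Dppa4* and *L1td1*; the median of all genes, not drawn, was -1.27 in KD.

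Absolute directions depended on the scaling for 3 of the 10 genes, *Lin28a*, *Fbxo15*, and *Sall4*, as given with each. The median log2 fold change of all genes was -0.03 in the deposited library-size scaling, 0.95 in the deposited spike-in scaling, 0.05 under quantile normalisation, and -0.45 when scaled to total reads. In the spike-in scaling all 10 genes had a higher mean in KD, and 9 of 10 were called higher, as were 48.1% of all genes, with *Dppa5a* at 405 ± 81.4 in control and 3027 ± 901 in KD (SD, n = 4 each). Relative to the median of all genes, that scaling gave *Dppa5a* a log2 fold change of 1.91, against 1.88 in the library-size scaling. The KD libraries had more reads than the control libraries (9433193 to 19856032 against 4602278 to 6680919). Within KD, the library with the fewest reads also had the lowest spike-in value of *Dppa5a*, 1874 at 9433193 reads, against 3903 at 19856032. How far the spike-in scaling removes read depth was not tested. Under quantile normalisation, where 9.87% of all genes were called higher, only *Dppa3* of the 10 was called, at 2.45, while *Dppa5a* (0.93), *L1td1* (0.65), and *Dppa4* (0.65) were below the fold threshold. Scaled to total reads, *Dppa3* (1.54) and *Dppa5a* (1.41) were called, as were 2.23% of all genes. Log2 fold changes also moved with exon length across all genes. The loess curve of log2 fold change on exon length stood at 0.38 for the 641 nt of *Dppa5a*, 0.27 for the 818 nt of *Dppa3*, -0.34 for the 3480 nt of *Lin28a*, and -0.49 for the 5073 nt of *Sall4*. With that curve taken out, *Dppa3* (1.44), *L1td1* (1.29), and *Dppa5a* (1.21) were called and *Dppa4* (0.85) was not. The part of exon length in these changes was not tested further.

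**Figure D4:**
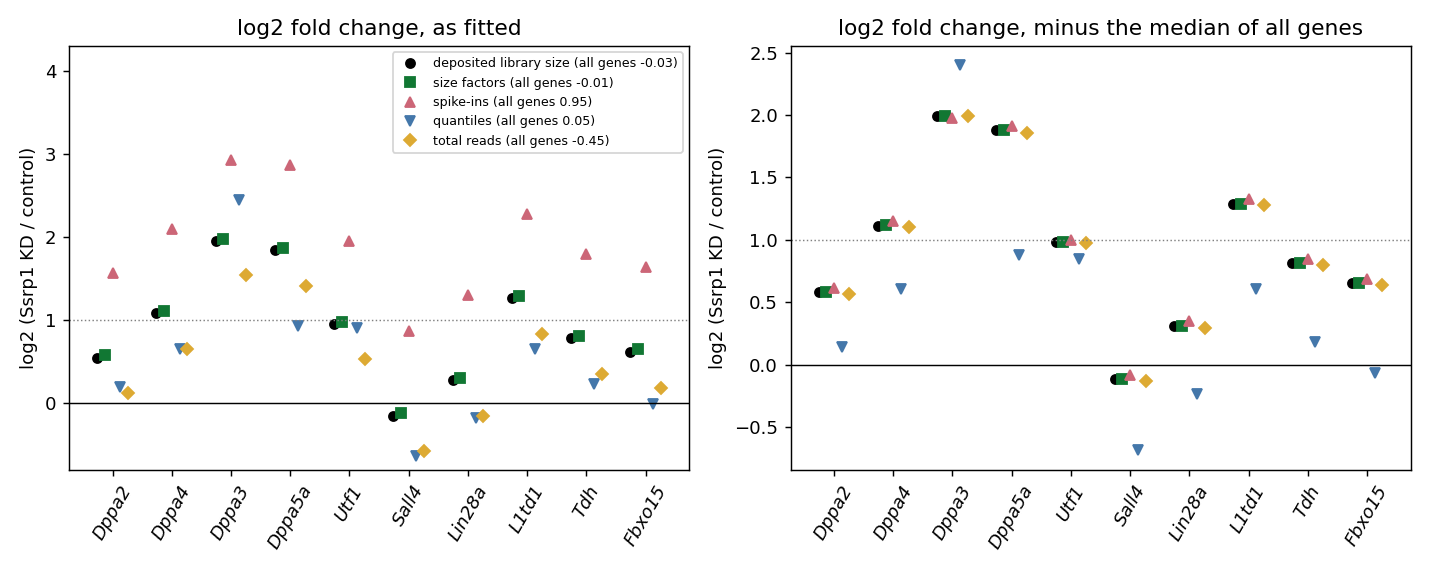
log2 fold change (*Ssrp1* KD over control) of the stem cell marker genes under 5 scalings, as fitted on the left and minus the median of all genes in that scaling on the right; the dotted line marks the fold threshold of 1. After the median is taken out, 4 scalings give nearly the same values, and quantile normalisation gives lower ones for 9 of the 10 genes and a higher one for *Dppa3* (2.45 as fitted).

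Other genes of the pluripotent state were given beside the markers. For comparison, 8.07% of all genes tested were called higher and 20.6% lower, with a median log2 fold change of -0.03. Among the 3846 genes with the highest mean values 16.1% were called higher, with a median of 0.47. Of 15 pluripotency transcription factors, 8 were called higher and none lower, with a median log2 fold change of 1.05. The largest rise was that of *Prdm14*, a repressor of DNA methylation enzymes, from 11.95 ± 2.601 to 54.7 ± 3.403 (SD, n = 4 each). Of 19 other stem cell markers, 10 were called higher and 1 lower, with a median of 1.03. They ranged from *Khdc3*, a maternal-effect gene, at 2.69, down to *Dppa1*, at -1.33 with values of 4.06 ± 0.692 and 1.34 ± 0.444. The call of *Dppa1* was lost under the spike-in scaling (-0.49, adjusted p = 0.164 in limma) and under quantile normalisation (-0.20, adjusted p = 0.442 in limma). Both medians were smaller under quantile normalisation (0.56 and 0.53) and when scaled to total reads (0.62 and 0.61). Minus the median of all genes, they were 0.51 and 0.48 under quantile normalisation. With total reads they were 1.07 and 1.06, against 1.09 and 1.07 in the library-size scaling. Quantile normalisation called 3 and 6 genes higher (9.87% of all genes), and total reads 1 and 6 (2.23%). Under the spike-in scaling 15 and 17 were called higher, as were 48.1% of all genes. The genes whose 8 centred log2 values were nearest to those of *Dppa5a* were *Rpl8* (Euclidean distance 0.131), *Ldha* (0.140), and *Phgdh* (0.161). Nearest to *Dppa3* were *Slc6a15* (0.273), *Sec13* (0.295), and *Spp1* (0.312). With 2 groups of libraries this distance mostly reflects the size of the change between them. The log2 fold changes were 1.85, 1.87, and 1.89 for the first 3 genes, beside 1.84 for *Dppa5a*. They were 2.07, 1.98, and 2.00 for the last 3, beside 1.95 for *Dppa3*.

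Chromatin-associated RNA of mESCs with no stated transfection was counted for the same genes in libraries of 3441643 and 3393923 counts. Small nucleolar RNAs took 63.8% and 60.7% of these counts. *L1td1* had 76 and 67 counts, which is 22.1 CPM (exact Poisson 95% interval 17.4 to 27.6) and 19.7 (15.3 to 25.1). *Sall4* had 43 and 84 counts, or 12.5 (9.04 to 16.8) and 24.8 (19.7 to 30.6) CPM, and its intervals did not overlap between the libraries. *Dppa5a* had 45 and 65 counts, *Fbxo15* 38 and 64, *Tdh* 34 and 44, *Lin28a* 22 and 28, *Dppa4* 15 and 28, and *Utf1* 13 and 23. *Dppa2* had 11 and 31 counts, or 3.196 (1.596 to 5.72) and 9.13 (6.21 to 12.96) CPM, whose intervals did not overlap either. *Dppa3* had 0 counts in the first library, which allows up to 0.872 CPM at 3 counts (exact Poisson upper bound 1.07), and 1 in the second. The intervals cover counting error only. Per kb of exon, *Dppa5a* stood highest in chromatin RNA as in control RNA, at percentiles 99.2 and 99.6 of 15384 genes. The percentile of *Utf1* was 92.9 in chromatin RNA and 73.6 in control RNA, and that of *Dppa3* was 20.7 and 51.9. *Lin28a* stood at 80.2 and 90.1, and the others lay closer together on both scales. The protocols differ, so these percentiles were not tested against each other. In the authors' tables of mean log2 expression, the order was led by *Dppa5a* as well, with 9.27 in that of KD and control and 8.62 in that of neural progenitors and mESCs, and *Dppa3* was lowest in both (4.48 and 3.55). Which libraries entered the first table, which holds 14340 genes, could not be settled from its values.

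SSRP1 peaks in mESCs were assigned to 9 of the 10 genes, all but *Dppa4*, and SUPT16 peaks to none. Of all 15384 genes, 36% had a SSRP1 peak assigned and 18.6% a SUPT16 peak. Among the 3846 genes with the highest control levels, which held 8 of the 10, the shares were 50.1% and 30.5%. The 9 genes held 21 of the 10114 SSRP1 peaks, of 294 to 2940 bp, and 7 of them held 2 or more, as did 12.0% of all genes. The nearest SUPT16 peak to any of the genes lay 16664 bp from *Dppa3* and was assigned to *Gdf3*. Neither peak heights nor replicate values are in the lists, so depth is unknown and a missing peak is not a measured absence.
A peak covered an annotated start in 4 genes, *Dppa5a*, *L1td1*, *Lin28a*, and *Fbxo15*, against 15.9% of all genes and 25.5% of those 3846. The peak of *Dppa5a* (chromosome 9, 78367563 to 78368640) ran from 441 bp before the start to 636 bp after it and took in 298 bp of coding exon. It was flanked by a peak of 784 bp upstream and one of 1274 bp beyond the 3′ end. The peak of *L1td1* (chromosome 4, 98726475 to 98727552) ran from 279 bp before the start into the first intron and covers the whole promoter printed above. A further peak of *L1td1*, of 2940 bp (98738431 to 98741370), began in the last 56 bp of the gene and ran on beyond it. The peak of *Lin28a* (chromosome 4, 134017941 to 134019214) covered 2 annotated starts and the printed promoter, which lies in an intron of the longer transcripts. *Fbxo15* had a peak of 1470 bp over its start and one of 1176 bp in an intron.
In the other 5 genes the peaks lay off the start. That of *Dppa2* (chromosome 16, 48309395 to 48309688) ended 586 bp before it. *Dppa3* had a peak in an intron, 1369 bp after the start, and one 40765 bp away. *Tdh* had a peak 388 bp after the start and 3 beyond its 3′ end, and *Sall4* had 1 upstream, 1 over 287 bp of coding exon, and 1 beyond the 3′ end. The peak of *Utf1* (chromosome 7, 139949783 to 139950370) lay 5927 bp after the start, beyond the gene, and the printed promoter carried none. Within the 10 genes, those called higher in KD thus included 2 with a peak over the start (*Dppa5a* and *L1td1*), 1 with peaks elsewhere (*Dppa3*), and 1 with none (*Dppa4*).

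**Figure D5:**
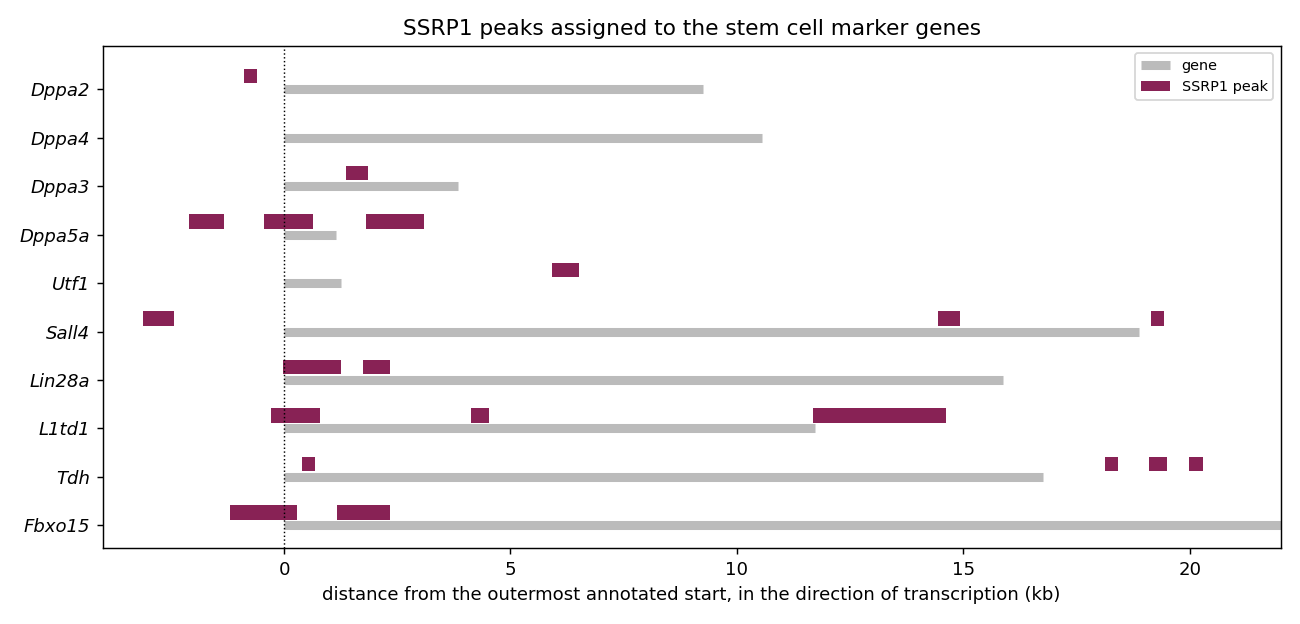
Gene bodies (grey) and assigned SSRP1 peaks (purple) of the stem cell marker genes, drawn to scale by distance in kb from the outermost annotated start in the direction of transcription. Peaks span the start in *Dppa5a*, *L1td1*, *Lin28a*, and *Fbxo15*, *Dppa4* has none, the axis ends within *Fbxo15*, and 1 peak of *Dppa3*, 40765 bp away, lies beyond it.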

How the data were processed

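Values per library were available for 15384 genes in 4 control and 4 KD libraries. Reads were aligned by the authors to mm10 with STAR and counted with featureCounts, and the deposited signal is these counts scaled to library size or to spike-ins. In the library-size scaling, 100% of values were whole multiples of 1 read within 0.1, and TMM-scaled CPM gave 0.995 to 1.002 times the deposited values. Whether the counting used strand is not stated, and *Tdh*, *Sall4*, and *Fbxo15* overlap genes on the other strand (Gm17232, Gm14261, and *Timm21*). Each count of chromatin RNA was deposited raw. The average log2 expression was taken from the authors' deposited limma tables; their other columns, the authors' own fold changes, test statistics, and p-values, and their exon table were not used. For the peak lists the authors ran PePr on both replicates together and ChIP-Enrich to assign each peak to the nearest gene. Positions are counted from 1.

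The library-size values were tested with limma 3.58.1 (trend) on log2(value + 0.5), which understates the change of low genes, in R 4.3.3 after a check on simulated data. Ratios were compared by exact permutation over libraries. The study's methods describe 4 biological replicates per group, and the labels do not say whether those with spike-ins came from separate transfections, so the p-values measure the spread between these libraries. Replicates differed beyond sampling noise, with a chi-square statistic of 1.88 to 6.61 per degree of freedom. Recovered reads were also tested with DESeq2 1.42.0 and edgeR 4.0.16. The other alternatives were further scalings, pseudocounts of 0.1 and 2, a filter on a mean value of 5, a loess correction for exon length, a block for replicate number, and leaving out single libraries. Genes, lists, and tests were chosen with earlier results of these data known. The genes named beside the 10 were *Ssrp1*, *Supt16*, *Pou5f1*, the largest called rise and fall of each list, and the 3 genes nearest to *Dppa5a* and to *Dppa3*; *Sox2*, *Nanog*, *Zfp42*, *Sall1*, *Sall2*, *Igf2bp3*, the enzymes listed with *Gcat*, and the markers of other cells were added after their values were seen. *Gcat* and *Lin28b* were named as partners in a ratio.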

Additional observations from a re-analysis of the deposited data

Results flagged for a closer look

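Within 20 groups of 4 libraries (10 genes, control and KD), 3 had 1 library far from the other 3, by a gap to the nearest library that passed Dixon's 95% critical value. Chance alone picks out about 1 in 20 such groups. The value of *Dppa3* in control replicate 4 was 5.33, below the other control libraries at 7.40 to 7.71. The value of *Dppa4* in KD replicate 3 was 233, above the others, which were all 212 when rounded. The value of *Lin28a* in KD replicate 4 was 196, above the others at 170.2 to 172. Without these libraries in turn, each of the 3 genes stayed on its side of the thresholds.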

How the results depend on the processing

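The 4 genes called higher in KD among the 10 were also 4 under TMM factors, size factors, both other pseudocounts, the filter on a mean value of 5, edgeR, DESeq2, and the replicate block, 3 with the exon length correction, and 4 to 5 with each library left out. They were 9 under the spike-in scaling, 1 under quantile normalisation, 2 when scaled to total reads (chosen after seeing the data), and 9 by the adjusted p alone, and none of the 10 was called lower under any of these. Over all genes, 1242 were called higher and 3163 lower. The counts were 7394 and 1082 under the spike-in scaling and 5447 and 5745 by the adjusted p alone. Quantile normalisation gave 1656 lower, the filter 2024 lower with fewer genes tested, and total reads 343 higher and 4696 lower. With each library left out they were 1210 to 1316 higher and 3044 to 3331 lower.

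Signs turned for *Lin28a* under quantile normalisation (-0.18) and total reads (-0.15), for *Fbxo15* under quantile normalisation (-0.0162), and for *Sall4* under the spike-in scaling (0.87) and the exon length correction (0.0914); beyond the scaling itself the cause was not tested. The log2 ratio of *Dppa5a* to *Dppa3*, -0.11 and not separated, was 0.0795 with a pseudocount of 2, and -0.198 to 0.0145 with each library left out, positive only without control replicate 4. That of *Dppa4* to *Pou5f1* (-0.15) was 0.0272 against *Nanog*. That of *L1td1* to *Pou5f1* (0.02) was -0.0199 against *Sox2* and -0.00866 to 0.0594 with each library left out, negative only without KD replicate 4. With each library left out, the ratio of *Dppa2* to *Dppa4* differed by -0.59 to -0.49, that of *Tdh* to *Gcat* by -1.19 to -0.99, and that of *Lin28a* to *Lin28b* by 1.41 to 1.54. With a replicate block, 1242 genes were called higher and 3163 lower, as without it, and 4 of the 10 genes were called higher. Replicate numbers did not pair the libraries (correlation of deviations from the group means -0.057 to 0.018 for shared numbers), and paired sign flips of 4 differences cannot go below p = 0.125 (exact). SSRP1 peaks were assigned to 9 of the 10 genes, to 6 with peaks of at least 500 bp (17.6% of all genes), and to 8 within 5000 bp of a start (30.9%). No SSRP1 peak of these genes overlapped a SUPT16 peak by either rule. Depth limits *Dppa3* most.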
